A study of Mus musculus with 32 samples.

Results

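Hpd, Hgd, Gstz1, Fah and Ddc are 5 mouse genes that act on tyrosine and its derivatives. They were chosen by name, as members of phenylalanine and tyrosine breakdown, among 18999 genes with a value, and all 5 were measured. The study followed kidney development in C57BL/6 mice, an inbred laboratory strain, on 32 two-colour microarrays at 10 stages, from embryonic day 19 (E19) through postnatal days P01, P03, P05, P07, P10, P14, P21 and P28 to P35. P03 and P35 had 4 arrays each and the other stages 3 each. Each array set Cy5-labelled total kidney RNA against the same Cy3-labelled mouse universal reference. Sources name the tissue normal kidney at every stage and were followed, although a protocol attached to the samples describes ureteral obstruction. Nothing in the labels tells whether arrays of a stage came from separate animals, so p-values reflect spread between arrays that may in part be technical.

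Phenylalanine is broken down by way of tyrosine, which takes the cofactor tetrahydrobiopterin, and the breakdown of tyrosine begins with transamination to 4-hydroxyphenylpyruvate. Hpd (4-hydroxyphenylpyruvate dioxygenase) turns this into homogentisate. Hgd (homogentisate 1,2-dioxygenase) opens the ring, Gstz1 (the zeta-class glutathione transferase, maleylacetoacetate isomerase) isomerises the product, and Fah (fumarylacetoacetate hydrolase) splits it into fumarate and acetoacetate. The pathway is best known from the liver, and its enzymes are also made in the kidney's proximal tubule, the segment that reabsorbs amino acids from the filtrate. Ddc (dopa decarboxylase) is not a step of this breakdown. It removes the carboxyl group of aromatic amino acids, and in the proximal tubule it makes dopamine from filtered L-DOPA, a signal for sodium excretion.

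The promoter windows of the 5 genes are shown because 4 of them rose between P07 and P21, while Hgd was not called. The time courses of all pairs of these genes but Gstz1 and Fah were unequal, in size or timing, in a test given below. Sequences are RefSeq's (build GRCm38.p6), each from 250 bases before to 50 bases after an annotated start, 5′ to 3′ on the gene's strand. Hpd lies at chr5:123171807-123182723 (window chr5:123182674-123182973, minus strand), Hgd at chr16:37579742-37632026 (window chr16:37579903-37580202, plus strand) and Gstz1 at chr12:87147161-87164723 (window chr12:87146915-87147214, plus strand). Fah lies at chr7:84585159-84605942 (window chr7:84605893-84606192, minus strand) and Ddc at chr11:11814101-11898144 (window chr11:11898095-11898394, minus strand). Gstz1 and Ddc have 2 annotated starts each, and the first listed is shown. Capitals mark the letters of a CCAAT box (CCAAT), a GC box (GGGCGG) or a TATA box (TATAAA), read on either strand.
Hpd: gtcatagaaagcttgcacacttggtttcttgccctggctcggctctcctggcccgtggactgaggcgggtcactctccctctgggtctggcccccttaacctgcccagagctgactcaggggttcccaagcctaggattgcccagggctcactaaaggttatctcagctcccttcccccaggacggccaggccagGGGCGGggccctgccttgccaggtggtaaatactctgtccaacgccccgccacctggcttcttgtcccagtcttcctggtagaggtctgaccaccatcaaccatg
Hgd: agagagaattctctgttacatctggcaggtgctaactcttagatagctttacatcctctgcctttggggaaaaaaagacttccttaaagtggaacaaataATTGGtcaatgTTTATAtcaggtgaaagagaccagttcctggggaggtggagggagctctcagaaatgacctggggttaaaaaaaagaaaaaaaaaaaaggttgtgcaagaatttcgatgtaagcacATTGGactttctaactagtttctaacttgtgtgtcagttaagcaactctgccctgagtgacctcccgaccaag
Gstz1: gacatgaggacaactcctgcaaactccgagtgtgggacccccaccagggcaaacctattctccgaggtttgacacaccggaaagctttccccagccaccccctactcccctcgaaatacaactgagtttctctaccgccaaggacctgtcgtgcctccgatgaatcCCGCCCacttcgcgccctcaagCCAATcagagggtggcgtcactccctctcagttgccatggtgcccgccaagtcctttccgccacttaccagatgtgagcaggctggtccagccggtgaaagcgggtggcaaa
Fah: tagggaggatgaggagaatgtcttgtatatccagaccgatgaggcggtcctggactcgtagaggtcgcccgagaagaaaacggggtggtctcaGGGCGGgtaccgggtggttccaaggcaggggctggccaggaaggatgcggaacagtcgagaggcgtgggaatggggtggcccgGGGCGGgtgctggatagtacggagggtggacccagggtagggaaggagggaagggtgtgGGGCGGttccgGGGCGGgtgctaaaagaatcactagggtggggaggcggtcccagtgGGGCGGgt
Ddc: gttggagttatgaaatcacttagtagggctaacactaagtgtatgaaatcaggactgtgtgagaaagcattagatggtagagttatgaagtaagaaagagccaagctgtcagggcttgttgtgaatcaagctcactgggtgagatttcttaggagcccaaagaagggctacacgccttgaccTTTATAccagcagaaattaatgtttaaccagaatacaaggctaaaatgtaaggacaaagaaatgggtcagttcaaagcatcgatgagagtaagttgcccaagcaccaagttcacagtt

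The Fah window held 5 GC boxes, at -157, -74, -15, -4 and 43 from the start, and a GC content of 64.3%. Hpd held 1 GC box at -55 with a GC content of 61.3%, and the first Gstz1 window held 1 GC box and 1 CCAAT box with 59.0%. Hgd and the first Ddc window were poorer in G and C, at 41% and 41.3%, against a median of 52.7% over 32851 mouse promoter windows of the same length. Hgd held 2 CCAAT boxes and 1 TATA box and Ddc 1 TATA box, each on the strand opposite to the gene. The second start of Ddc, with 54.3% GC, held 1 CCAAT box, and the second of Gstz1, with 54.7%, held 1 CCAAT box and 1 GC box. Over all windows, 35.7% held a GC box, 37.4% a CCAAT box and 13.6% a TATA box. An HNF4 site (CAAAGTCCA, in 0.475% of all windows) and a glucocorticoid receptor half-site (AGAACA, in 19%) were also searched on both strands, and these letters are in none of the 7 windows. A match is a description of the letters in these windows and was not tied to the levels.

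All values below are log2 ratios of kidney to reference RNA, converted from the deposited ratios, which were read as log10 with the kidney as numerator. A ratio depends on how much of the gene the reference holds, so levels are compared between stages of 1 gene and never between genes. The kidney was sampled whole, so a change in the share of tubule cells and a change of RNA per cell cannot be told apart. The median of 18 proximal tubule markers was above 5 on every array. It lay between 5.45 and 5.85 at E19 and between 5.91 and 6.68 at P35. The direction of the ratios was read from these same markers, so their being above 0 is no separate check of the labelled tissue. Between 10.8% and 23.1% of the probes of an array held an exact 0, which was treated as not measured. Among the members this touched Hpd alone, on P03 array 1, P05 array 3 and P07 array 3, so that Hpd rests on 29 arrays and has 2 arrays at P05 and at P07.

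Hpd, the first enzyme after transamination, was low and uneven up to P10 and high from P14. Its log2 ratio was 2.13, 0.23 and 0.50 on the 3 arrays of E19 and 1.37, 1.36 and 2.24 at P01. It was 2.65, 0.53 and 1.33 on the measured arrays of P03, -0.47 and 2.69 at P05, and 1.27 and 0.18 at P07. The ranges of these stages overlapped, except that the P01 arrays all lay above those measured at P07, and at P05 the arrays stood further apart than any stage means of E19 to P10 did. At P10 the 3 arrays were alike, at 0.91, 0.89 and 0.88, below every array of P01. At P14 they read 3.61, 2.39 and 4.45, all above every array of P10. At P21 they read 4.95, 4.66 and 5.61, at P28 5.20, 4.46 and 5.31, and at P35 5.19, 4.92, 5.41 and 2.67. P35 array 4 stood below the other 3 by over 2 log2 units and still above every array of E19. In the order of the stage means, the 6 stages up to P10 came first and P14, P35, P28 and P21 after them, and the gap between P01 and P14 was the one that exceeded the larger SD of its neighbours.

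Hgd, the ring-opening dioxygenase, stayed between 4.50 and 6.21 on all arrays, with its lowest stage means at E19 and P01. Its log2 ratio was 5.12, 5.22 and 4.50 at E19 and 5.16, 4.66 and 5.16 at P01. At P03 it was 5.26, 5.82, 5.67 and 5.54, at P05 5.32, 5.93 and 5.14, and at P07 4.98, 5.35 and 6.12. At P10 it was 5.42, 5.32 and 4.98, at P14 5.57, 5.21 and 6.13, and at P21 5.37, 5.58 and 6.21. At P28 it was 5.43, 5.23 and 5.07, and at P35 5.38, 5.63, 5.99 and 5.58. Its 10 stage means spanned 0.77, from 4.95 ± 0.39 (SD, n = 3) at E19 to 5.72 ± 0.44 (SD, n = 3) at P21, and no neighbours in the order of these means differed by more than the larger of their SDs. Every P03 array lay above every array of E19 and P01. The step from P01 to P03, of 0.58 ± 0.27 (SE), was not called (limma adjusted p = 0.612).

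Gstz1, the isomerase, lay higher at later stages, in small steps and with little spread between arrays. It read 1.32, 1.31 and 1.17 at E19, 1.32, 1.69 and 1.79 at P01, and 1.81, 1.72, 1.95 and 1.72 at P03. It read 1.76, 1.63 and 1.64 at P05, 1.88, 1.67 and 1.88 at P07, and 1.95, 1.93 and 2.10 at P10. From P10 to P21 no array of a later stage fell into the range of an earlier one: P14 read 2.39, 2.39 and 2.58, and P21 read 2.58, 2.63 and 2.79. P28 read 3.07, 2.91 and 2.75 and P35 2.79, 2.96, 2.77 and 3.10, and both overlapped P21. In the order of its means, P01 and P05, P03 and P07, and P35 and P28 were neighbours closer than the larger of their SDs. The pooled SD within stages was 0.13, against 0.98 for Hpd, 0.36 for Hgd, 0.22 for Fah and 0.37 for Ddc.

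Fah, which carries out the last cleavage, stayed low to P10 and reached its late level by P21. It read 0.65, 0.31 and 0.18 at E19, 0.46, 0.59 and 0.95 at P01, and 0.78, 1.11, 0.77 and 0.69 at P03. It read 0.76, 0.74 and 0.07 at P05, 0.86, 0.40 and 1.03 at P07, and 0.73, 1.20 and 0.79 at P10. The ranges of these 6 stages overlapped, except that every E19 array lay below those of P03 and P10, and no neighbours in the order of their means differed by more than the larger SD. P14 read 1.63, 1.44 and 1.73, P21 2.07, 2.03 and 2.22, P28 1.99, 1.95 and 1.97, and P35 1.95, 2.03, 2.03 and 1.86. P14 lay above every earlier array, and the 3 later stages above every array of P14.

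Ddc, the decarboxylase, read -0.18, -0.44 and -0.24 at E19 and 0.91, 0.89 and 1.39 at P01, with no overlap. Every P01 array lay above every E19 array for 8.27% of all genes tested. At P03 Ddc read 0.00, 0.47, 0.93 and 0.60, at P05 0.65, 0.96 and 1.13, at P07 1.42, 1.29 and 1.72, and at P10 1.36, 1.85 and 2.51. At P14 it read 2.14, 1.78 and 2.11, within the range of P10. At P21 it read 3.67, 3.31 and 3.58, at P28 4.19, 3.49 and 3.25, and at P35 4.03, 3.74, 4.15 and 2.90. All arrays of the last 3 stages lay above all earlier arrays. In order of their means, P05 and P01, P07 and P10, P10 and P14, P21 and P28, and P28 and P35 were neighbours closer than the larger of their SDs. Ddc is the one member with 2 probes, which correlated over the 32 arrays (Pearson r = 0.962, a description) and gave P35 minus E19 changes of 3.89 and 4.10.

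**Figure D1:**
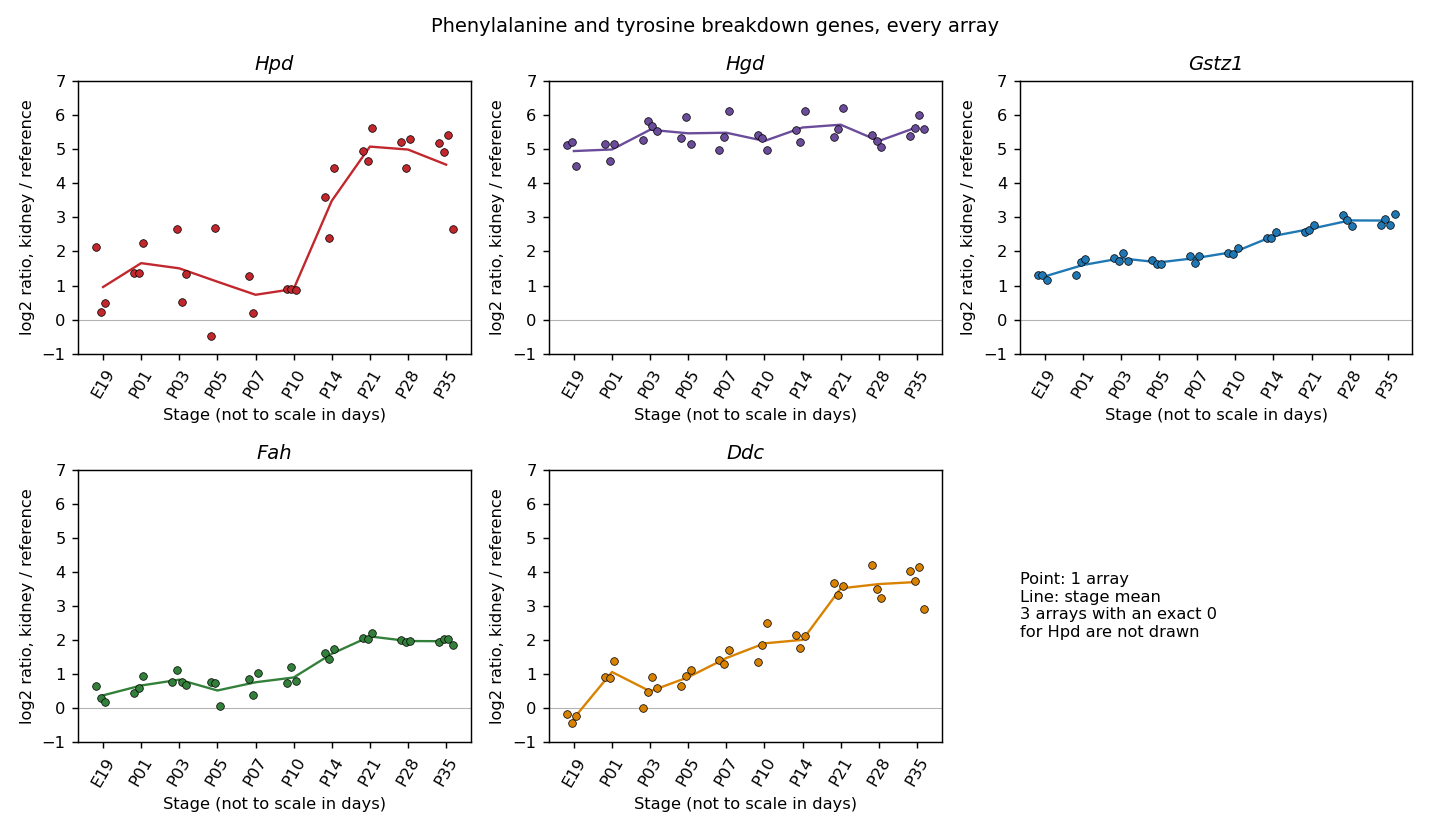
Log2 ratio of kidney to reference RNA (vertical axis, the same scale in each panel) for the 5 genes at the 10 stages (horizontal axis, evenly spaced and not to scale in days). Each point is 1 array and each line joins the stage means. The Hpd arrays of P14 lie above those of P10, a step not called by limma, the Ddc arrays of P21 lie above those of P14, a step that was called, and Hgd stays between 4.50 and 6.21.

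Across all 10 stages, 4 of the 5 genes passed limma's moderated F test, with Benjamini-Hochberg adjustment over 16335 genes, of which 43.6% passed. The adjusted p from limma was 1.2e-11 for Ddc, 1.73e-10 for Gstz1, 6.25e-09 for Fah and 6.02e-06 for Hpd. Hgd did not pass, with an adjusted p of 0.183, but it passed with the image run as a block and with array weights, which gave 5 of 5. Leaving out either measured array of P05 or of P07 leaves Hpd with 1 array at that stage, below the minimum of 2 for this test, and the count becomes 3 of 5.

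From E19 to P35 all 5 genes rose, by limma's test adjusted over 17119 genes, of which 21% were called higher. The member median change was 1.64, against 0.06 over all genes tested. Ddc rose by 4.00 ± 0.28 (SE) on the log2 scale, or 16-fold, from -0.29 ± 0.14 (SD, n = 3) to 3.71 ± 0.56 (SD, n = 4), with an adjusted p of 4.18e-11 from limma. Hpd rose by 3.59 ± 0.70 (SE), or 12.1-fold, from 0.96 ± 1.03 (SD, n = 3) to 4.55 ± 1.27 (SD, n = 4), with a limma adjusted p of 0.00024. Gstz1 rose 3.12-fold and Fah 3.01-fold, by 1.64 ± 0.14 (SE; limma adjusted p = 4.9e-10) and 1.59 ± 0.19 (SE; limma adjusted p = 1.47e-07). For each of the 5 genes every P35 array lay above every E19 array, as was the case for 23% of all genes tested.

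The rise of Hgd was the smallest of the 5, at 0.70 ± 0.27 (SE), or 1.62-fold, with an adjusted p of 0.0441 from limma. The lowest P35 array read 5.38 and the highest E19 array 5.22. Without 1 array, E19 array 1 or 3 or P35 array 2, 3 or 4, it no longer passed, with changes of 0.48 to 0.79 and limma adjusted p-values of 0.0536 to 0.235. After quantile normalization of the arrays its change was 0.31 ± 0.22 (SE), with a limma adjusted p of 0.277. For the other 4 genes the call held under each of the 41 alternatives computed.

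Arrays were imaged in 3 runs, as the image numbers in the labels show, and E19 and P35 share 2 of them. Within run 2 (1 array against 1) the P35 minus E19 change was 4.69 for Hpd, 0.88 for Hgd, 1.63 for Gstz1, 1.77 for Fah and 4.28 for Ddc. Within run 3 (3 arrays against 1) it was 4.10, 0.51, 1.64, 1.66 and 4.04, in the same order. The direction was upward in both runs for each gene. Leaving out P35 array 4, which had the lowest Hpd, Fah and Ddc of its stage and the highest Gstz1, gave a rise of 4.22 for Hpd and 4.26 for Ddc.

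At the step around birth, P01 minus E19, Ddc alone was called, where 0.812% of 16985 genes were called higher. It rose by 1.35 ± 0.30 (SE), or 2.56-fold, to 1.06 ± 0.28 (SD, n = 3), with a limma adjusted p of 0.0205. Its probes gave 1.02 and 1.69, and within the 2 image runs that hold both stages the change was 1.10 and 1.58. The call rests on the full set of arrays: without E19 array 1, 2 or 3 or P01 array 3 the change was 1.19 to 1.41, with limma adjusted p-values of 0.0543 to 0.159. All P01 arrays and E19 arrays 1 and 3 had high Xist, a marker of females, and with Xist as a covariate the Ddc change was 1.25 ± 0.29 (SE; limma adjusted p = 0.0264). Gstz1 changed by 0.33 ± 0.15 (SE), with an unadjusted limma p of 0.0303 and an adjusted p of 0.32. Hpd, Hgd and Fah gave 0.70 ± 0.75, 0.05 ± 0.29 and 0.29 ± 0.20 (SE) and did not pass.

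During the first week, P07 minus P01, none of the 5 genes was called by limma, where 7.04% of 16738 genes were called in either direction, and none had an unadjusted p under 0.05. The changes were -0.93 ± 0.84 (SE) for Hpd, 0.49 ± 0.29 for Hgd, 0.21 ± 0.15 for Gstz1, 0.09 ± 0.20 for Fah and 0.41 ± 0.30 for Ddc. With the image run as a block, Hgd passed, at 0.68 ± 0.21 (SE) with a limma adjusted p of 0.0407. Both stages share 1 run, with 1 array each, where Hgd differed by 0.96.

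From P07 to P21, 4 of the 5 genes rose, where 6.11% of 16881 genes were called higher. Hpd rose by 4.35 ± 0.84 (SE), or 20.4-fold (limma adjusted p = 0.000885), from 2 arrays at P07. Ddc rose 4.12-fold, by 2.04 ± 0.30 (SE; limma adjusted p = 3.58e-05). Fah rose 2.54-fold, by 1.34 ± 0.20 (SE; limma adjusted p = 3.29e-05), and Gstz1 1.81-fold, by 0.86 ± 0.15 (SE; limma adjusted p = 0.000175). Hgd changed by 0.24 ± 0.29 (SE), with an adjusted p of 0.682. The median change of the members was 1.34, beside 0.0006 for all genes tested. Both stages share 1 image run with 1 array each, and there Ddc, Fah, Gstz1 and Hgd differed by 1.86, 1.20, 0.91 and 0.09. Hpd was not measured on that P07 array, and without either of its 2 measured P07 arrays it has too few for the test. P07 arrays 2 and 3 had low Xist, and all P21 arrays had high Xist. With Xist as a covariate, Hpd, Ddc, Fah and Gstz1 rose by 3.97 ± 0.82, 1.84 ± 0.30, 1.38 ± 0.21 and 0.88 ± 0.16 (SE) and were called. Hgd, at 0.33 ± 0.31 (SE), was not.

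Within this span, the steps between neighbouring stages carried fewer calls. From P10 to P14 the means of Hpd, Fah and Gstz1 went up by 2.59 ± 0.75, 0.70 ± 0.20 and 0.46 ± 0.15 (SE). None passed the adjusted test, at limma adjusted p-values of 0.269, 0.254 and 0.30, although their unadjusted p-values were 0.00227, 0.00174 and 0.00407. At this step 0.171% of 16941 genes were called in either direction. Fah passed there with the image run as a block, at 0.70 ± 0.16 (SE; limma adjusted p = 0.0269). Within the 3 image runs, each with 1 array of both stages, Hpd differed by 1.51 to 3.56, Fah by 0.53 to 0.90 and Gstz1 by 0.29 to 0.65. Ddc gave 0.10 ± 0.30 (SE) at the same step, and -0.72 to 0.77 within runs.

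From P14 to P21 Ddc rose by 1.51 ± 0.30 (SE), or 2.85-fold, with a limma adjusted p of 0.00497, where 0.646% of 17015 genes were called higher. All 3 arrays of P14 had low Xist and high Eif2s3y, and all 3 arrays of P21 the reverse, so sex and stage cannot be told apart at this step. Xist, transcribed from the inactive X chromosome, marks females and Eif2s3y, on the Y chromosome, males. With the Xist ratio as a covariate the Ddc step was 1.19 ± 0.32 (SE), with a limma adjusted p of 0.0609. Within the 2 image runs that hold both stages it was 1.47 and 1.35. Hpd and Fah went up by 1.59 ± 0.75 and 0.51 ± 0.20 (SE) at this step and did not pass, at limma adjusted p-values of 0.376 and 0.224.

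After P21 none of the 5 genes was called. From P21 to P35, limma called 0.853% of 17230 genes in either direction, and none of the members had an unadjusted p under 0.05. The changes were -0.53 ± 0.70 (SE) for Hpd, -0.07 ± 0.27 for Hgd, 0.24 ± 0.14 for Gstz1, -0.14 ± 0.19 for Fah and 0.19 ± 0.28 for Ddc.

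**Figure D2:**
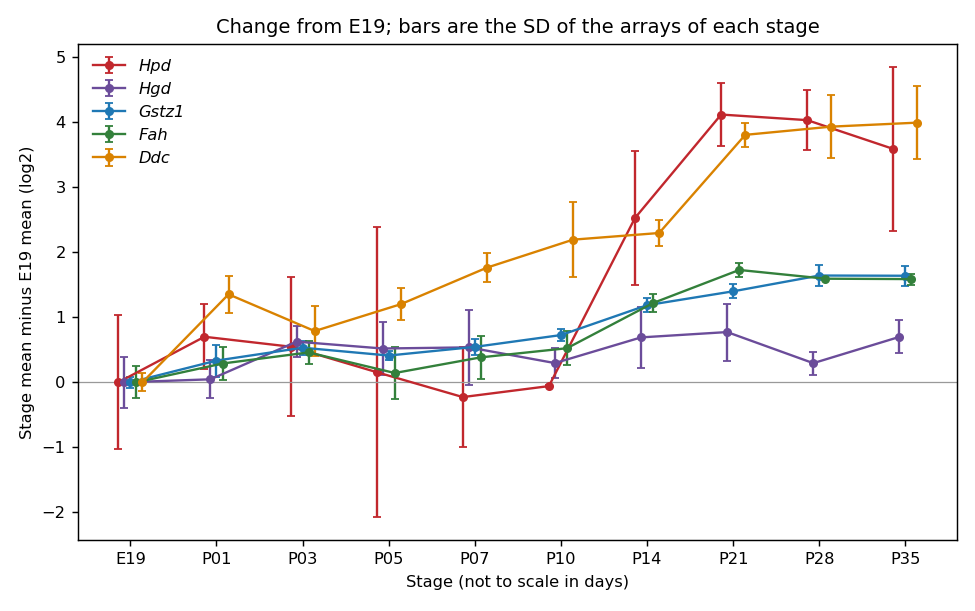
Stage mean minus the E19 mean (log2, vertical axis) for the 5 genes at the 10 stages (horizontal axis, evenly spaced and not to scale in days). Bars are the SD of the 2 to 4 arrays of each stage. Hpd is near 0 at P07 and P10 and at 4.12 by P21, Ddc stands apart at P01 and ends at 4.00, Gstz1 and Fah end at 1.64 and 1.59, and Hgd stays below 0.78.

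Before P21 the stage means of the genes stood at unequal shares of their rise, a description that was not tested. As a share of the difference between the E19 and P35 means, Hpd stood at -1.6% at P10 and 70.4% at P14. Fah stood at 33% and 76.8% at the same stages, and Gstz1 at 44.3% and 72.4%. Ddc stood at 33.9% at P01, 54.9% at P10 and 57.5% at P14. By P21 the shares were 114.7% for Hpd, 108.9% for Fah, 95.3% for Ddc and 85.4% for Gstz1. Shares for Hgd rest on a small difference and are not given.

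Whether 2 genes changed unequally was tested on their difference on the same array, which removes what both share on it. A permutation F test over the stages was used, with 100000 resamples. Genes that rise by unequal amounts differ in this test even at the same timing, so it does not tell timing from size. Of the 10 pairs 9 changed unequally after Benjamini-Hochberg adjustment over the pairs. The 4 smallest adjusted p-values were 2.5e-05, for Hgd against Hpd, Hgd against Ddc, Gstz1 against Ddc and Fah against Ddc, each from 1e-05, the smallest p this test can give. Hgd differed from Gstz1 and Fah at adjusted permutation p-values of 0.00085 and 8e-05, and Hpd from Gstz1 and Fah at 0.00312 and 0.00216. Hpd against Ddc was the weakest of these, with an adjusted permutation p of 0.0353. Without 1 array, the count of unequal pairs was 8 or 9.

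Gstz1 and Fah, whose products act in successive steps, were the pair that did not pass, with an adjusted permutation p of 0.163. The within-array difference of their log2 ratios, whose size depends on the reference, was 0.89 ± 0.19 (SD, n = 3) at E19 and 0.94 ± 0.22 (SD, n = 4) at P35. Over the 10 stage means, which share arrays, reference and normalization, their Pearson r was 0.975, as a description. It was 0.964 for Hpd and Fah, 0.961 for Gstz1 and Ddc and 0.937 for Fah and Ddc. Hgd correlated with the other 4 at 0.455 to 0.574.

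Around these genes, the enzymes of the phenylalanine step went up with them. The tetrahydrobiopterin list covers the cofactor's synthesis and recycling and a co-chaperone, and 7 of its 8 measured genes rose from E19 to P35, none fell, and the median change was 1.32 (0.06 over all genes). Dnajc12, the co-chaperone, rose by 3.43 ± 0.24 (SE; limma adjusted p = 2.5e-11), from 1.16 ± 0.41 (SD, n = 3) at E19 to 4.60 ± 0.15 (SD, n = 4) at P35. Gchfr, the feedback regulator of GTP cyclohydrolase, rose by 1.57, and Qdpr, which recycles the cofactor, by 1.39. Pcbd1 and Pcbd2, which dehydrate the used cofactor, rose by 1.32 and 0.92, and Spr and Pts, of its synthesis, by 1.31 and 0.95. Gch1, the first enzyme of that synthesis, changed by 0.47 ± 0.20 (SE; limma adjusted p = 0.0595). Between P01 and P07, where no member was called, 5 of these 8 rose, among them Dnajc12 by 1.37 and Gchfr by 1.10.

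The transamination step was mixed. Of 8 measured enzymes that can act on tyrosine or related acids, 3 rose from E19 to P35, none fell and 5 did not pass, with a median change of 0.48. Kyat3 and Kyat1, kynurenine aminotransferases with a broad range of substrates, rose by 1.93 ± 0.24 and 1.22 ± 0.25 (SE). Got1, the cytosolic aspartate aminotransferase, rose by 1.02 ± 0.17 (SE). Tat, the liver's tyrosine aminotransferase, read 0.44 ± 0.17 (SD, n = 3) at E19 and 0.40 ± 0.36 (SD, n = 4) at P35, a change of -0.04 ± 0.21 (SE). Got2, Aadat, Il4i1 and Mif gave 0.28, 0.61, 0.35 and 0.02 and did not pass. From P07 to P21, 4 of the 8 rose.

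Downstream of Fah, each of 7 measured genes that act on fumarate, on acetoacetate or on compounds made from them rose, with a median change of 1.34. Oxct1, which activates acetoacetate in mitochondria, rose by 2.11 ± 0.21 (SE; limma adjusted p = 8.08e-09), and Aacs, its cytosolic counterpart, by 1.97. Aacs read -0.51 ± 0.31 (SD, n = 3) at E19, -0.65 ± 0.12 (SD, n = 3) at P21 and 1.45 ± 0.76 (SD, n = 4) at P35. Its change from P21 to P35, where no member was called, was 2.11 ± 0.29 (SE; limma adjusted p = 0.00019). Mdh1, Acat1 and Fh1, for malate dehydrogenase, acetoacetyl-CoA thiolase and fumarase, rose by 1.57, 1.34 and 1.26. These genes also serve general energy metabolism. From P07 to P21, 4 of the 7 rose, and from E19 to P01 none was called.

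Of 6 measured enzymes that make or remove biogenic amines, none rose from E19 to P35, 3 fell and 3 did not pass, with a median change of -0.35. Hdc, which makes histamine from histidine and acts neither before nor after Ddc, fell by 3.72 ± 0.63 (SE; limma adjusted p = 3.29e-05), from 4.84 ± 0.35 (SD, n = 3) to 1.12 ± 2.05 (SD, n = 4), with a wide spread at P35. Pnmt, which makes adrenaline from noradrenaline, fell by 1.53 ± 0.44 (SE), and Maoa, which degrades amines, fell by 0.61 ± 0.21 (SE). Th, which makes L-DOPA from tyrosine, read -0.28 ± 0.55 (SD, n = 2) at E19 and -0.37 ± 0.65 (SD, n = 4) at P35 and was measured on 22 of the 32 arrays. Dbh and Maob changed by 0.27 ± 0.22 and 0.25 ± 0.39 (SE).

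Of 9 tested genes for dopamine receptors and amine transporters, 1 rose, 2 fell and 6 did not pass, with a median change of 0.10. Slc18a1, a vesicular monoamine transporter, rose by 2.18 ± 0.41 (SE; limma adjusted p = 0.000119). Drd4, a dopamine receptor, fell by 4.38 ± 0.36 (SE; limma adjusted p = 4.14e-10), from 2.29 ± 0.05 (SD, n = 3) to -2.09 ± 0.72 (SD, n = 4). Slc18a2, the other vesicular transporter, fell by 0.82 ± 0.24 (SE). Drd1 was measured on too few arrays of both stages to be tested.

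Carriers that bring aromatic amino acids into and through tubule cells mostly rose. Of 10 measured, 7 rose, 1 fell and 2 did not pass, with a median change of 1.49. Slc6a19, the luminal carrier of neutral amino acids, rose by 5.30 ± 0.55 (SE; limma adjusted p = 2.31e-08), and Slc43a2, a facilitated carrier of neutral amino acids, by 3.00 ± 0.45 (SE). Slc16a10, which carries aromatic amino acids across the basolateral membrane, rose by 2.49 ± 0.18 (SE; limma adjusted p = 3.81e-11). It was also the one gene of this list called at the step around birth, where it rose by 0.84 ± 0.19 (SE; limma adjusted p = 0.0201), as Ddc did. Slc7a8, a basolateral exchanger of neutral amino acids, and Slc7a9, a luminal exchanger best known for cystine, rose by 2.00 and 1.69. Slc43a1, a relative of Slc43a2, fell by 2.08 ± 0.30 (SE).

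Relatives of the members outside the pathway were examined as well. Fahd1 and Fahd2a, of the same fold family as Fah, rose by 2.13 ± 0.36 and 2.02 ± 0.17 (SE). Gsto1, an omega-class glutathione transferase, rose by 0.65 ± 0.23 (SE), less than the zeta-class Gstz1 though the difference was not tested. Gsto2 and Hpdl gave 0.13 ± 0.26 and 0.45 ± 0.28 (SE) and did not pass. Of 2 hepatocyte nuclear factors, Hnf4g rose by 0.93 ± 0.27 (SE), and Hnf4a changed by 1.01 ± 0.41 (SE; limma adjusted p = 0.0514).

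**Figure D3:**
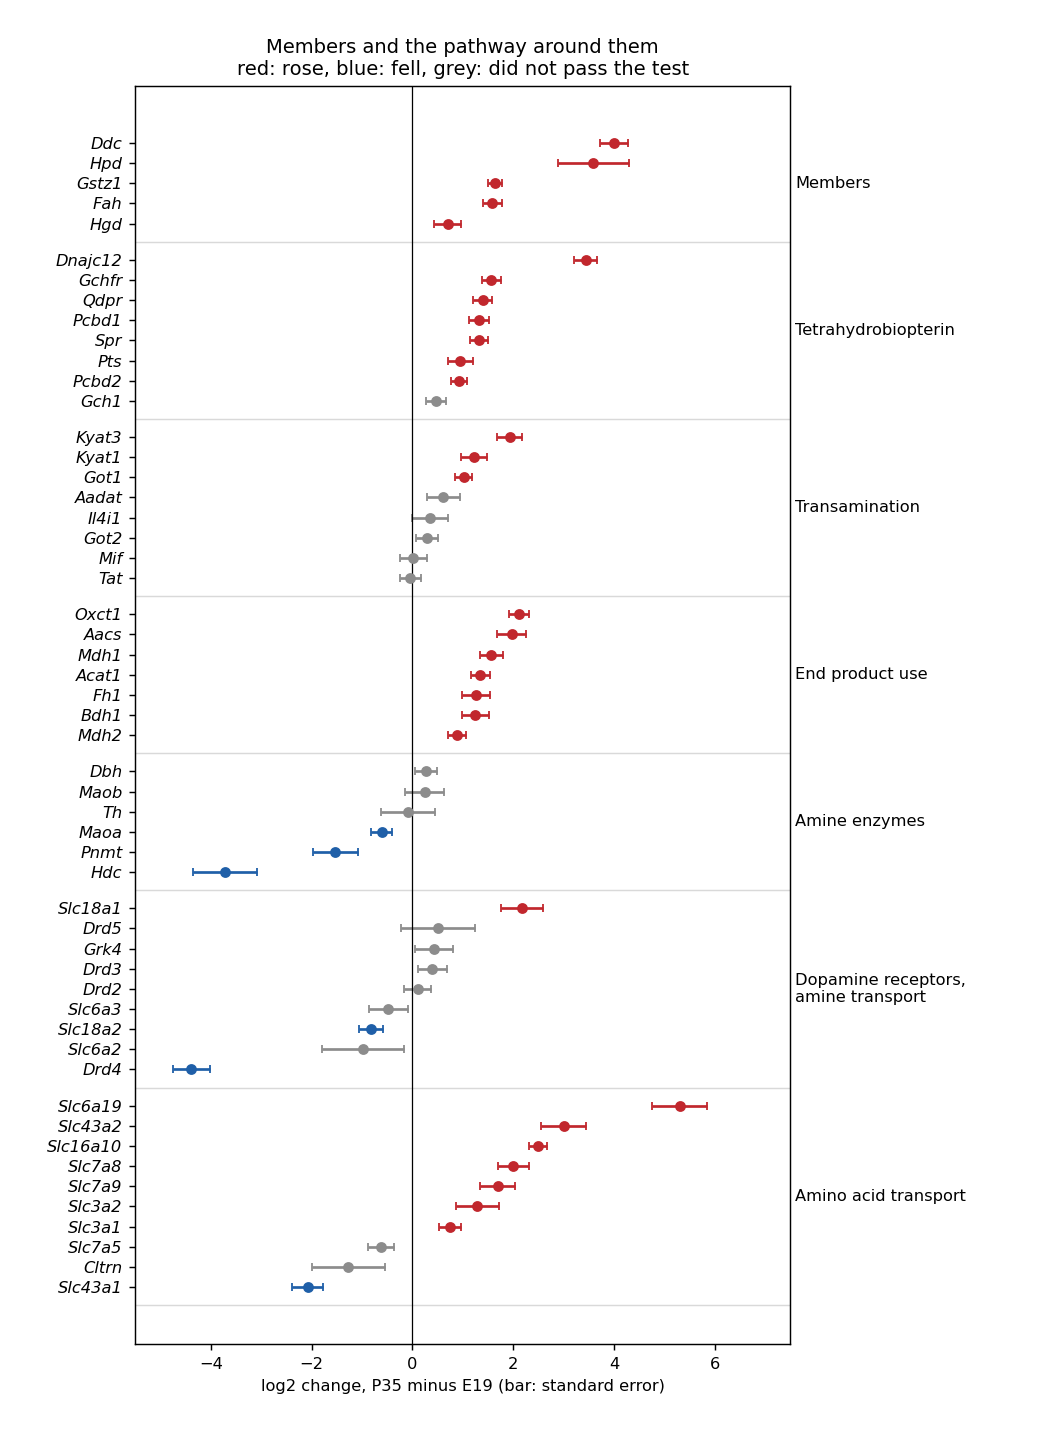
Change from E19 to P35 (log2, horizontal axis) of the 5 genes and of 6 lists of genes around them, with bars for the standard error. Red marks genes that rose, blue genes that fell and grey genes that did not pass limma's test. The tetrahydrobiopterin, end product and carrier lists lie mostly to the right, with 7 of 8, 7 of 7 and 7 of 10 red, while the amine enzymes show 0 red and 3 blue.

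The lists of cell type markers give the setting of these changes. Of 18 proximal tubule markers, 9 rose from E19 to P35, none fell and the median change was 0.67, beside 1.64 for the members. From P07 to P21, when 4 members rose, 3 of the 18 rose and the median was 0.17. Of 11 hepatocyte markers 3 rose, 2 fell and 6 did not pass from E19 to P35, with a median of -0.61. Of 10 adrenal markers 2 rose and 3 fell, with a median of -0.13, and of 7 neuron markers 1 rose and 2 fell, with a median of -0.24. Of 5 adipose markers 4 rose and 1 fell, with a median of 4.03. Their list median ran from 0.01 to 0.37 over the E19 arrays and from 2.31 to 5.57 over those of P35, and their part in the members' changes was not tested.

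Adrenal markers are given beside Ddc, which the adrenal medulla also makes. The adrenal list median ran from 0.22 to 0.71 at E19 and from -0.11 to 0.23 at P35. Slc18a1 and Star, the steroidogenic cholesterol carrier, rose by 2.18 and 0.72, and Pnmt, Chga and Chgb fell by 1.53, 1.17 and 1.51, while Cyp21a1, Mc2r, Nr5a1, Th and Dbh did not pass. Dbh stayed between -0.58 and 0.87, Mc2r between 0.04 and 0.88 and Th between -1.31 and 0.64 on the arrays where they were measured. The part of adrenal RNA in the level of Ddc was not tested.

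Hepatocyte markers are given beside Hpd, which the liver makes in large amounts. Only arrays with an Hpd value were ranked. Within a stage, the array with the highest Hpd also had the highest hepatocyte list median at 7 of 10 stages. The exceptions were P10, P21 and P35. At P01 and P28 the match was close, at 3.91 against 3.90 and 2.94 against 2.93. With so few arrays per stage, some matches would arise without any link. The proximal tubule list median was highest on the array with the highest Hpd at E19, P03, P05, P14, P21 and P35. It was not at P01, P07, P10 and P28. At P07, array 3, which has no Hpd value, had the highest list median, at 3.89 against 3.88 on array 1. At P05, Hpd read -0.47 on array 1 and 2.69 on array 2, where the list median was 1.60 and 4.47, the lowest and highest of that stage. At P14 array 3 had the highest of both, but array 1 had more Hpd than array 2, at 3.61 against 2.39, with a list median of 2.40 against 4.31. Between stages the 2 did not move alike: the list median ran from 3.72 to 4.65 at E19 and from 2.98 to 3.80 at P35. No hepatocyte marker was at 0 throughout, with Alb, albumin, between 0.59 and 5.03. E19 array 1, P03 array 2 and P05 array 2, all of image run 1, had the highest Hpd of their stages. Their proximal tubule list medians were also the highest of their stages, at 5.85, 6.88 and 6.55. On P01 array 3, of run 3, with the highest Hpd of P01, that median was the lowest of its stage, at 5.26. The part of either marker list or of the image run in the spread of Hpd was not tested.

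**Figure D4:**
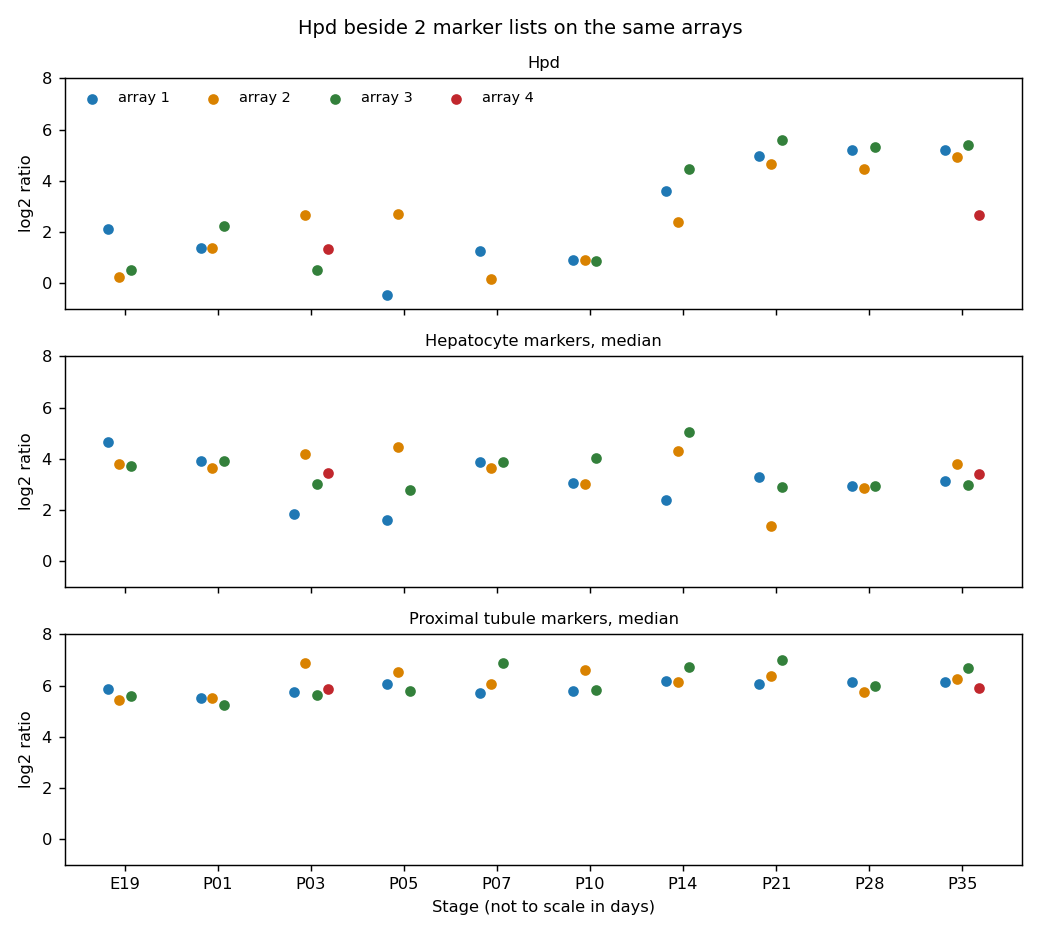
Log2 ratio of Hpd (top) and, on the same arrays, the median log2 ratio of the measured hepatocyte markers (middle, 11 genes) and proximal tubule markers (bottom, 18 genes), by stage. Each point is 1 array, with its number in colour. The early arrays with high Hpd, such as P05 array 2 at 2.69, are high in the middle panel too. P05 array 2 is also the highest of its stage in the bottom panel, at 6.55, while P01 array 3 is the lowest of its stage there, at 5.26. From P21 Hpd is above 4 on all but 1 array and the hepatocyte medians lie between 1.37 and 3.80.

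For each member, the 3 genes most like it were taken by Pearson r over the 10 stage means, among 7441 genes measured on all arrays whose stage means span at least 1. These correlations describe 10 means that share arrays and reference. For Ddc they were Ptgfr, a prostaglandin receptor, Ndufaf1, an assembly factor of respiratory complex I, and the carrier Slc16a10, each at 0.991. For Fah they were Echs1, a mitochondrial enoyl-CoA hydratase, at 0.997, and Aldh1l1, a folate enzyme, and Mcrip2, each at 0.996. For Gstz1 they were Cpeb3, an RNA-binding protein, Msra, a methionine sulfoxide reductase, and Aldh6a1, of valine breakdown, each at 0.992. For Hpd they were the adaptor Shb at 0.99, Gdpd3 at 0.982 and the nuclear receptor Nr6a1 at 0.981, of which Shb spans from -0.30 to 0.83 while Hpd spans 4.35. For Hgd the closest were lower, with Kcne1, a potassium channel subunit, at 0.929, Defb11, a defensin, at 0.909 and Aadac, a deacetylase, at 0.903.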

How the data were processed

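Kidney RNA (Cy5) was measured against a common reference RNA (Cy3) on 32 arrays. The authors deposited a ratio for each probe on each array, taken here as log10 from the range of the values (-3.25 to 4.00). Its unit and direction are not stated. The ratio was taken as kidney over reference because proximal tubule markers were above 0 on every array. How spots were extracted and dyes normalized is not given in the sources used here. Of 45220 probes, the 33653 with 1 gene symbol were used. Ratios were multiplied by 3.32 to log2. Exact zeros counted as not measured, and probes of a gene measured on all arrays were averaged, or else the probe measured on most was taken.

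Stages came from the labels and were fitted together in limma 3.58.1 (R 4.3.3) with 1 mean per stage, for genes with at least 2 arrays per stage compared. Benjamini-Hochberg adjustment ran over all genes tested, with calls at 0.05. The scripts were tested on simulated data. Python 3.11.15 and matplotlib 3.10.9 drew the figures. The members, gene lists and tests were chosen with earlier results of these data known. Every member is named, and of each list at most the 5 called genes with the largest E19 to P35 change, any called against the list's direction, and all genes of the phenylalanine, transamination and amine lists. Fold changes are 2 to the power of the log2 change. The number of arrays limits the precision, and spot intensities were not used here.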

Additional observations from a re-analysis of the deposited data

How the results depend on the processing

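The rises of Hpd, Gstz1, Fah and Ddc from E19 to P35 kept direction and call under all 41 alternatives, at 3.23 to 4.22, 1.57 to 1.71, 1.49 to 1.73 and 3.85 to 4.26, while that of Hgd ran from 0.31 to 1.01 and lost its call in 9, among them the most variable probe (limma adjusted p = 0.0558), the Xist covariate (0.0565) and the arrays of both stages alone (0.065). The count of members called from E19 to P01 was 2 with array weights (Ddc, and Gstz1 at 0.45), 0 with the arrays of both stages alone and 0 to 1 without 1 array, against 1. Of the steps between neighbouring stages, 2 were called, both of Ddc. With array weights there were 6, with Hpd from P14 to P21 (2.26), Fah from P10 to P14 (0.65) and from P14 to P21 (0.59), and Gstz1 at birth added. There was 1 with the most variable probe, which gave Ddc 1.36 from P14 to P21 (limma adjusted p = 0.0959), 1 with the Xist covariate, and 1 to 2 without 1 array. From P01 to P07 the image run as a block gave 1 call, Hgd. No result reversed its call's direction under the alternatives run. The causes were not tested. Per-member alternatives for spans other than E19 to P35 were added after seeing the data. No paired analysis was possible because the labels give the arrays no replicate numbers. At P05 and P07, 2 arrays limit what Hpd can show.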
